A study of Mus musculus with 30 samples.

Results

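The Homer and Shank postsynaptic scaffolds are described here by the 9 genes Homer1, Homer2, Homer3, Shank1, Shank2, Shank3, Dlg4, Dlgap1 and Dlgap2, taken by symbol from an RNA-seq table of 24883 rows. Each symbol matched 1 row, and all 9 averaged at least 1 FPKM over the 30 libraries, the level required for testing, which 13184 rows reached. FPKM is a fragment count scaled to transcript length and to the mapped fragments of the library. The libraries came from the dorsal hippocampus (dCA1) of young adult male C57BL/6J mice, 1 hemisphere and 1 library per mouse, 6 mice in each of 5 conditions. VEH-HC mice received the transfection reagent in vivo-jetPEI without DNA and stayed in the home cage with handling only. VEH-T10 and VEH-T3 mice received the same reagent and were collected 1 h after object location memory training of 10 min (threshold) or 3 min (subthreshold). In the paper's task, mice are habituated to the chamber on days before training, so habituation and training cannot be told apart against VEH-HC. Y397F-T10 mice received a plasmid for CREST with the Y397F substitution (tyrosine to phenylalanine) before the 10-min training. Y397D-T3 mice received a plasmid with the Y397D substitution (tyrosine to aspartic acid) before the 3-min training. The labels name these forms phospho-null and phospho-mimetic, but the paper could not detect phosphorylation at Y397 and treats both only as point mutants. CREST is a neuronal transcriptional regulator encoded by Ss18l1. Both plasmids carry HA-tagged mouse Crest under a short CaMK2 promoter, so expression is limited to the transfected, mainly excitatory neurons of a bulk sample, and no condition had the wild-type plasmid or a home-cage plasmid group.

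At an excitatory synapse these proteins form a layered scaffold below the membrane. PSD-95, encoded by Dlg4, anchors glutamate receptors and adhesion molecules, and the SAPAP proteins encoded by the Dlgap genes link PSD-95 to the Shank proteins. Shank proteins in turn bind Homer, which ties them to group I metabotropic glutamate receptors and to calcium release channels of the endoplasmic reticulum. Homer1 is also an immediate early gene in the hippocampus: neuronal activity favours a short form, Homer1a, that lacks the coiled coil by which the long forms cross-link. FPKM by gene symbol joins the short and long forms, so the values below do not separate them.

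The promoters of the Homer genes are shown because Homer1 was the member called in every comparison with the home cage. The sequences are from RefSeq (GRCm38.p6), cover 250 bases before to 50 bases after an annotated start, and are the most upstream entry of each gene. Capitals mark TGACGT, which holds the half-site of the cAMP response element bound by CREB.
Homer1, chr13:93303507-93303806, plus strand: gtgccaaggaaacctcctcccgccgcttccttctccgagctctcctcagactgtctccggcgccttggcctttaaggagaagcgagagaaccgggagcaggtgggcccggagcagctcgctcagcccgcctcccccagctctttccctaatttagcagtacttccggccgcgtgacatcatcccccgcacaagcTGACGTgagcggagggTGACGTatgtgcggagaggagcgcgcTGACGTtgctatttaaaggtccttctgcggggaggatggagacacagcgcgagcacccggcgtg
Homer2, chr7:81706876-81707175, minus strand: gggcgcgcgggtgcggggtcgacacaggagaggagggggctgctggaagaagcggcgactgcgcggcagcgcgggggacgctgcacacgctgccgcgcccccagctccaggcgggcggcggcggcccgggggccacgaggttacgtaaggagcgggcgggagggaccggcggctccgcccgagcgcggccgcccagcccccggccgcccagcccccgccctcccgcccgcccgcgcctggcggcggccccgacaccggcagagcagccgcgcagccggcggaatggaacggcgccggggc
Homer3, chr8:70282749-70283048, plus strand: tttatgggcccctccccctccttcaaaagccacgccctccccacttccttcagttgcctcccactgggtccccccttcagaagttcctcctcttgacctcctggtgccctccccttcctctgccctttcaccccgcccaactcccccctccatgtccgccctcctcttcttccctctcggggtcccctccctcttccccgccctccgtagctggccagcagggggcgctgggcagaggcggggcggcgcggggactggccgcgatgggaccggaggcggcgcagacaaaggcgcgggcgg
The Homer1 promoter held TGACGT 3 times, at 56, 40 and 14 bases before the start, all on the plus strand. The Homer2 and Homer3 promoters held none. With both strands searched, TGACGT occurred in 2468 of 32851 promoters (7.51%), and 66 promoters (0.201%) held it at least 3 times. Among 6 members with a promoter in the table (Homer1, Homer2, Homer3, Shank3, Dlg4 and Dlgap1), only Homer1 held it. Of 11 activity-regulated genes with a promoter in the table, 7 held it. These counts are of genes, which can have several promoters, while the percentages are shares of promoters. The longer TGACGTCA, which contains TGACGT, occurred in 1.79% of promoters and in none of these members. TGANTCA, bound by AP-1, occurred in 7.81% and in none of these members. The serum response element (1.63%) and the MEF2 site (0.557%) were also absent from these windows. The EGR site GCGNGGGCG, present in 5.55% of promoters, occurred in Homer2, Homer3 and, at 2 places, Shank3. A match describes letters in these windows and is not evidence of binding.

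Before the comparisons, the libraries were checked. Absolute depth is unknown, and relative depth, read from the discrete values of rows with few fragments, ranged from 0.811 to 1.244 of the median library. Markers listed for CA1 pyramidal neurons were present throughout, with a summed level of 688 to 934 FPKM over 5 genes. Slc17a7 made up most of that sum, at 489 to 702 FPKM. Across the libraries Wfs1 ranged from 18.4 to 72.6 FPKM, Fibcd1 from 31.2 to 53.1, Pou3f1 from 26.7 to 46.3 and Neurod6 from 73.7 to 126. The sum mainly follows Slc17a7, so it does not show that the CA1 content was steady. Markers of dentate granule cells were also present, at 43.0 to 141 FPKM over 3 genes. The summed level of 5 choroid plexus markers was 917 to 5600 FPKM in VEH-HC and 10.1 to 12800 FPKM in the trained conditions, and its median was 3150 FPKM in VEH-HC. Over mice given the 10-min training the median was 101 FPKM with vehicle and 55.6 with Y397F, and over mice given the 3-min training 1950 FPKM with vehicle and 124 with Y397D. The part of the pyramidal, dentate and choroid plexus markers in the differences between conditions was not tested. Ss18l1 overlapped between each plasmid condition and the vehicle condition of the same training, with 11.35 to 14.05 FPKM in Y397F-T10 against 10.43 to 13.32 in VEH-T10, and 12.89 to 14.02 in Y397D-T3 against 11.81 to 14.67 in VEH-T3, so it does not check the plasmid labels. VEH-HC mouse 4 lay below the other 5 VEH-HC mice for Homer1, Homer2, Shank1, Shank2, Shank3 and Dlgap2 and above them for Homer3 and Dlg4, and results are given without it where it changed a call. All comparisons with the home cage share their 6 control libraries, and in bulk tissue fewer cells of a type and less RNA per cell cannot be told apart.

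Levels per kilobase differed widely among the scaffolds. Dlg4 was the most abundant, at a mean of 269 FPKM over the 30 libraries (rank 224 of the tested rows), followed by Dlgap1 at 110 FPKM. Shank1 (53.6 FPKM) and Shank3 (53.0 FPKM) stood close together above Shank2 (22.5 FPKM). Among the Homer genes, Homer3 (25.3 FPKM) and Homer1 (21.2 FPKM) were above Homer2 (7.78 FPKM), and Dlgap2 averaged 12.9 FPKM. In VEH-HC, Homer3 made up 48.6% ± 3.66 of the summed Homer FPKM, Homer1 36.2% ± 2.78 and Homer2 15.1% ± 1.54 (mean ± SD, n = 6 mice). The Homer sum was 43.2 to 45.8 FPKM in VEH-HC and lay above that range in every trained mouse, between 50.3 and 67.1 FPKM. The share of tested rows with such a separation of all trained mice was not computed. The Shank sum overlapped, at 96.4 to 123 FPKM in VEH-HC and 110 to 158 FPKM in the trained mice.

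**Figure D1:**
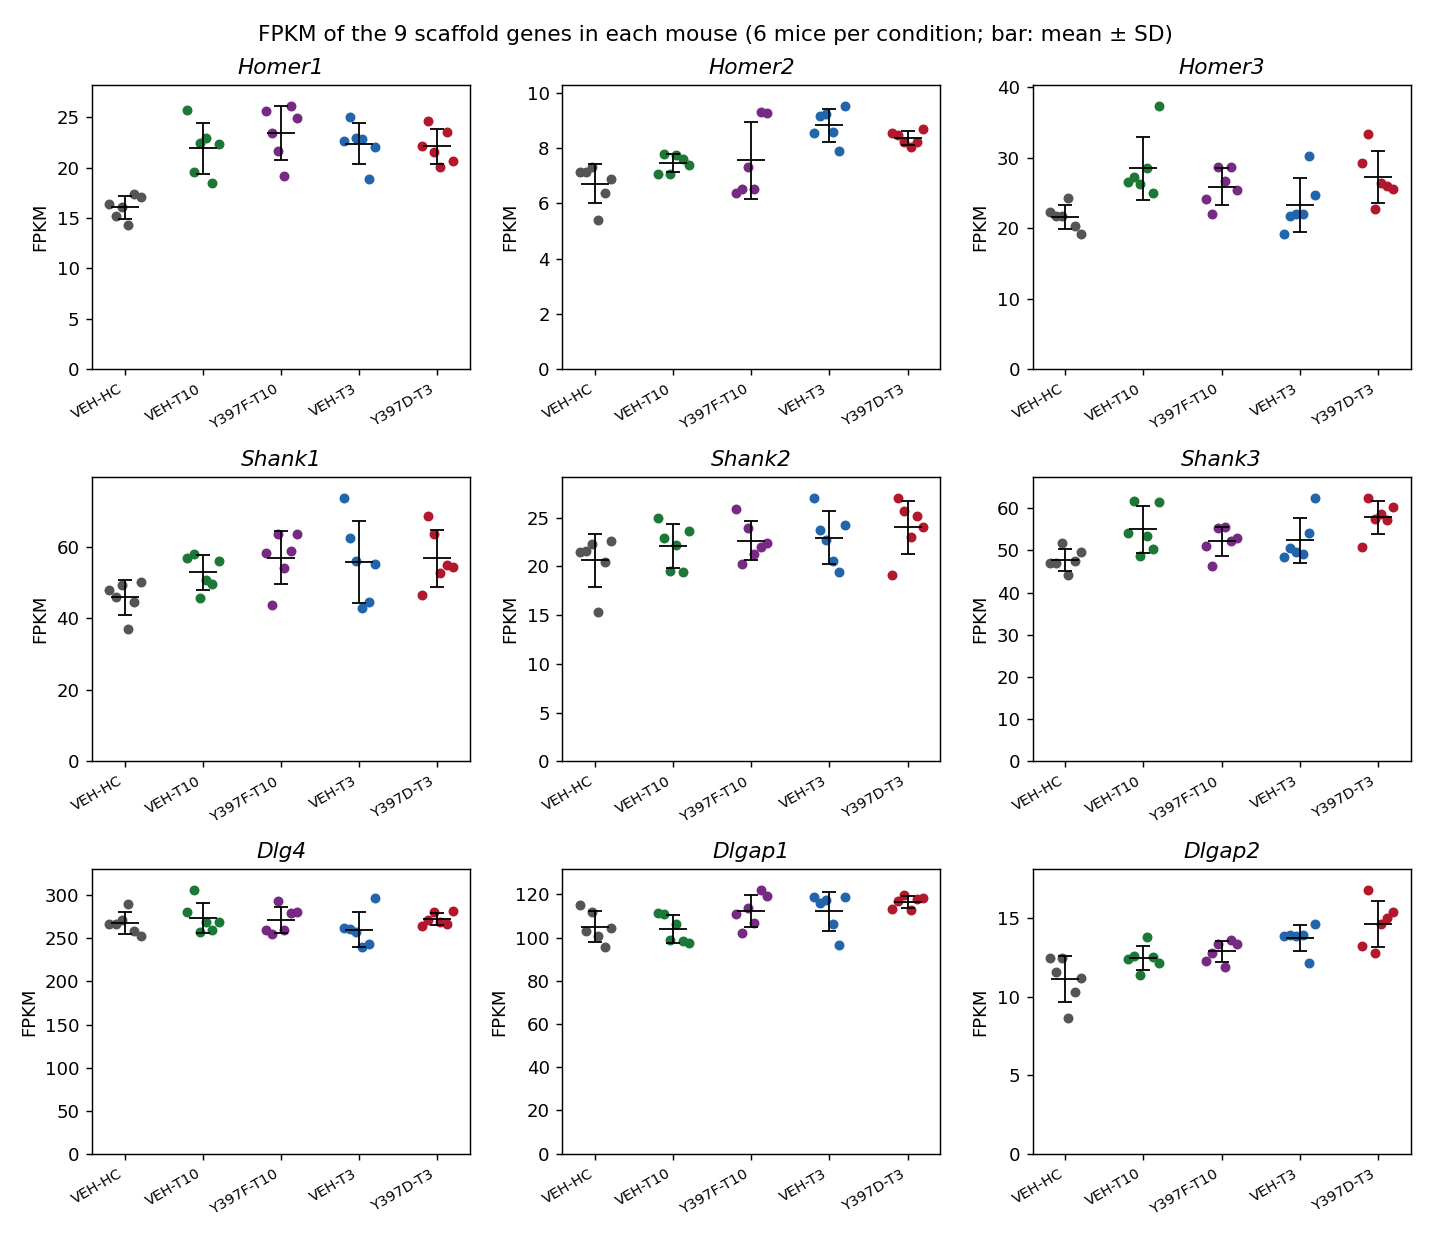
FPKM (y axis, linear from 0) of each of the 9 scaffold genes by condition (x axis), with 1 point per mouse, 6 mice per condition, and a bar for the mean ± SD. Every trained mouse lies above every VEH-HC mouse for Homer1, whose VEH-HC values end at 17.38 FPKM and whose trained values begin at 18.52 FPKM, while the Dlg4 values of all conditions overlap.

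Compared with the home cage, Homer1 was higher in all 4 trained conditions, and the other scaffolds called depended on the condition. Shank1, Shank2, Dlg4 and Dlgap1 were not called in any. Differences were tested with limma on log2(FPKM + 1) over all 30 libraries, and a gene was called at a Benjamini-Hochberg adjusted p under 0.05 over all tested rows. In VEH-T10 mice, 1 of 9 scaffolds was called higher (Homer1), where 0.319% of all tested rows were. Y397F-T10 likewise had 1 of 9 (Homer1), against 0.47% of all rows. VEH-T3 had 3 of 9 (Homer1, Homer2 and Dlgap2), against 2.23%. Y397D-T3 had 5 of 9 (Homer1, Homer2, Homer3, Shank3 and Dlgap2), against 3.91%. None of the 9 was called lower, where 0.501%, 0.66%, 2.94% and 3.16% of all rows were in the same order. At an unadjusted p under 0.05 the scaffolds numbered 4, 4, 4 and 8, all higher, against 4.57%, 5.5%, 7.79% and 10.3% of all rows. The median log2 fold change of the 9 was 0.16, 0.14, 0.15 and 0.29, beside -0.03, -0.04, -0.04 and -0.03 over all tested rows. Without VEH-HC mouse 4, the scaffolds called numbered 1, 1, 2 and 4, against 0.243%, 0.0758%, 0.584% and 2.79% of all tested rows called higher. The balance of all calls moved with scaling, from 42 higher and 66 lower in VEH-T10 to 33 and 13 with library medians subtracted, from 62 and 87 to 30 and 12 in Y397F-T10, from 294 and 387 to 239 and 102 in VEH-T3 and from 515 and 417 to 692 and 248 in Y397D-T3, while the scaffolds called under that scaling were again all higher. Unequal counts in these comparisons do not show that the trained conditions differed from each other.

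**Figure D2:**
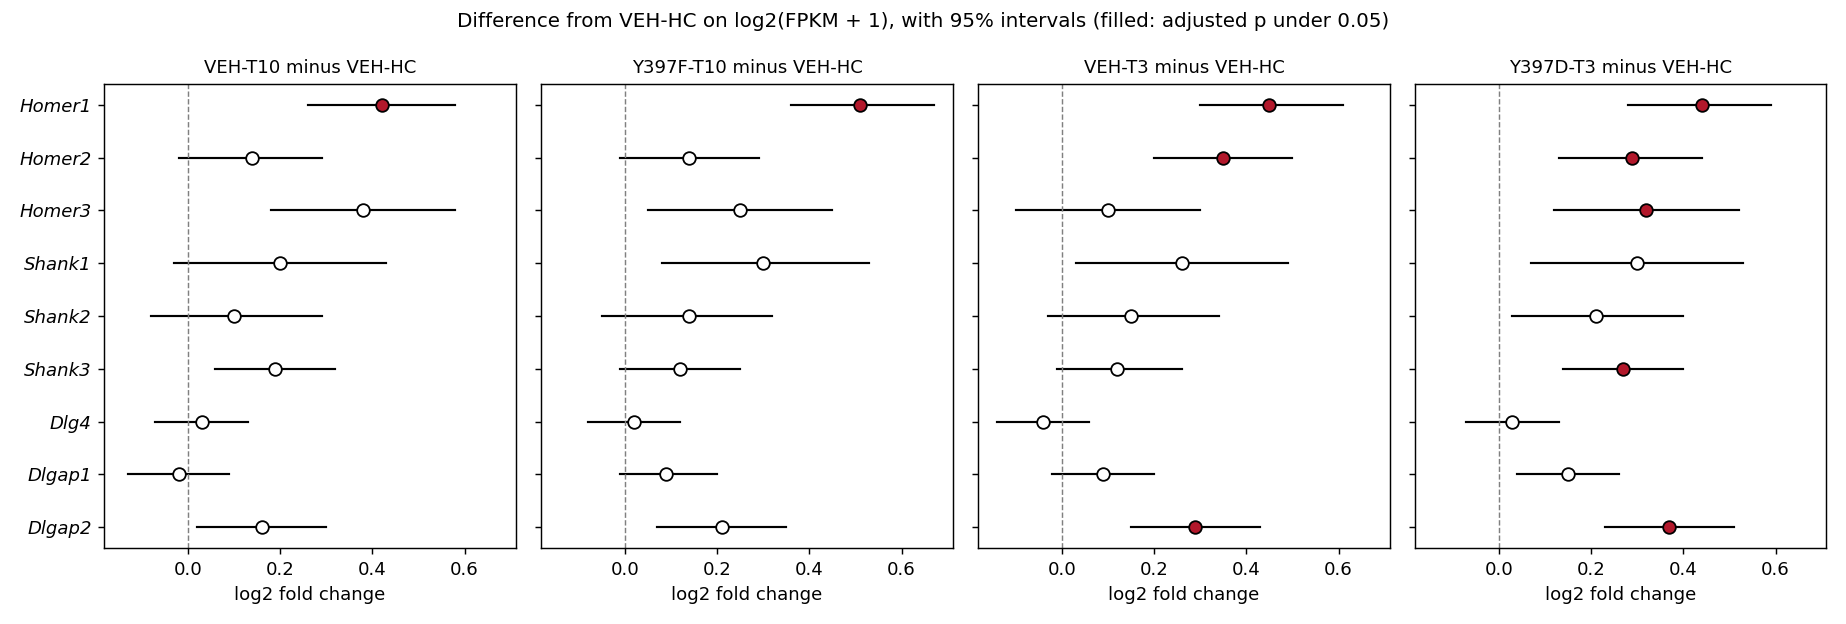
Log2 fold change of each scaffold gene (y axis) from VEH-HC on log2(FPKM + 1) (x axis), 1 panel per trained condition, with 95% intervals from limma and filled points at an adjusted p under 0.05. Homer1 is filled in all 4 panels with values from 0.42 to 0.51, and Dlg4 lies between -0.04 and 0.03.

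Homer1 (chr13:93299635-93405129) was the member with the highest fold changes. It measured 14.36, 16.22 and 17.38 FPKM (lowest, median and highest mouse) in VEH-HC. In VEH-T10 the corresponding values were 18.52, 22.4 and 25.71 FPKM, and in Y397F-T10 they were 19.15, 24.18 and 26.12 FPKM. VEH-T3 mice had 18.84, 22.71 and 25.06 FPKM, and Y397D-T3 mice had 20.08, 21.88 and 24.64 FPKM. The 4 trained conditions overlapped one another broadly, and none overlapped VEH-HC. Such a separation upward was found in 0.789% of tested rows for VEH-T10, 0.554% for Y397F-T10, 0.675% for VEH-T3 and 2.5% for Y397D-T3. Homer1 rose by a log2 fold change of 0.42 in VEH-T10 (standard error 0.0763, limma adjusted p = 0.00959). In Y397F-T10 the log2 fold change was 0.51 (adjusted p = 0.00147), the smallest p of all tested rows. The rise was 0.45 in VEH-T3 (adjusted p = 0.00393) and 0.44 in Y397D-T3 (adjusted p = 0.00159). Without any single library the Homer1 difference remained called in all 4 comparisons, with log2 fold changes between 0.374 and 0.569. Fitted to the 12 VEH-T3 and VEH-HC libraries alone, it was 0.453 with an adjusted p of 0.0528.

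Homer2 (chr7:81600481-81707527) encodes a second Homer protein with the same receptor- and Shank-binding domain. VEH-HC mice had 5.41, 7.02 and 7.3 FPKM, VEH-T10 mice 7.05, 7.51 and 7.8 FPKM and Y397F-T10 mice 6.39, 6.93 and 9.31 FPKM. VEH-T3 mice had 7.89, 8.88 and 9.52 FPKM, and Y397D-T3 mice had 8.02, 8.36 and 8.67 FPKM. Both conditions with the 3-min training lay wholly above VEH-HC, and both conditions with the 10-min training overlapped it. The Y397F-T10 mice were the most spread (SD 1.39 FPKM), since 2 points sit above 9 FPKM in the plot of FPKM by condition. Homer2 rose by a log2 fold change of 0.35 in VEH-T3 (standard error 0.0745, limma adjusted p = 0.0121) and of 0.29 in Y397D-T3 (adjusted p = 0.0201). Its value was 0.14 in both VEH-T10 (adjusted p = 0.403) and Y397F-T10 (adjusted p = 0.341). Without VEH-HC mouse 4, Homer2 in Y397D-T3 was no longer called (0.233, adjusted p = 0.0562). With the trend of each library on transcript length and GC content removed, Homer2 was called in neither, at 0.218 (adjusted p = 0.131) in VEH-T3 and 0.195 (adjusted p = 0.107) in Y397D-T3.

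Homer3 (chr8:70282827-70294361), the third family member, also carries the coiled coil. Its lowest, median and highest values were 19.22, 21.72 and 24.31 FPKM in VEH-HC. VEH-T10 mice had 24.98, 26.9 and 37.32 FPKM, wholly above VEH-HC, and Y397F-T10 mice had 22.03, 26.02 and 28.66 FPKM. VEH-T3 mice had 19.19, 22.01 and 30.29 FPKM, and Y397D-T3 mice had 22.65, 26.24 and 33.39 FPKM. The last 3 conditions overlapped VEH-HC. Homer3 was called in Y397D-T3 only (log2 fold change 0.32, standard error 0.0977, limma adjusted p = 0.0465), although its difference was 0.38 in VEH-T10 (adjusted p = 0.0577). The Y397D-T3 call was lost when any 1 of 10 libraries was left out, namely VEH-HC mice 1, 2, 3, 5 and 6 and Y397D-T3 mice 1, 2, 4, 5 and 6, with Homer3 at 0.257 to 0.331 and adjusted p between 0.0606 and 0.13. After removal of the length and GC trend, Homer3 was called in VEH-T10 as well (0.443, adjusted p = 0.0238).

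Among the Shank genes, which encode the large scaffolds that join SAPAP and Homer, Shank3 (chr15:89499623-89560261) was the one called. It measured 44.13, 47.28 and 51.74 FPKM in VEH-HC and 50.86, 58.05 and 62.37 FPKM in Y397D-T3, where 6 of 6 mice lay above the VEH-HC median and the lowest overlapped the VEH-HC range. VEH-T10 mice had 48.67, 53.78 and 61.73 FPKM, Y397F-T10 mice 46.27, 52.51 and 55.45 FPKM and VEH-T3 mice 48.49, 50.09 and 62.32 FPKM. All 3 overlapped VEH-HC. Shank3 rose by a log2 fold change of 0.27 in Y397D-T3 (standard error 0.064, limma adjusted p = 0.0123) and was called there without any single library. In VEH-T10 the difference was 0.19 (adjusted p = 0.133), and in Y397F-T10 and VEH-T3 it was 0.12 in each (adjusted p = 0.331 and 0.258).

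Shank1 (chr7:44310253-44360572) and Shank2 (chr7:144001928-144424494) were not called in any of these comparisons. Shank1 ranged from 36.99 to 50.01 FPKM in VEH-HC and from 42.92 to 73.54 FPKM over the trained mice, with its widest spread in VEH-T3 (SD 11.4 FPKM). Its log2 fold changes from VEH-HC lay between 0.2 and 0.3, with a standard error of 0.112 and adjusted p between 0.0973 and 0.408. Shank2 ranged from 15.32 to 22.6 FPKM in VEH-HC and from 19.16 to 27.01 FPKM over the trained mice, with log2 fold changes between 0.1 and 0.21. The lowest VEH-HC value of each was that of mouse 4. The spread among the mice left wide intervals, and that of Shank1 in Y397D-T3 ran from 0.07 to 0.53 on the log2 scale (95%).

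Among the SAPAP genes, Dlgap2 (chr8:14095865-14847680) was called and Dlgap1 (chr17:69969073-70821413) was not. Dlgap2 measured 8.62, 11.37 and 12.48 FPKM in VEH-HC, 12.15, 13.89 and 14.6 FPKM in VEH-T3 and 12.77, 14.81 and 16.76 FPKM in Y397D-T3. The Y397D-T3 mice did not overlap VEH-HC, and the VEH-T3 mice overlapped by 1 mouse at 12.15 FPKM. Dlgap2 rose by a log2 fold change of 0.37 in Y397D-T3 (standard error 0.0684, limma adjusted p = 0.00208) and of 0.29 in VEH-T3 (adjusted p = 0.0175). The VEH-T3 call was lost without VEH-HC mouse 4 (0.227, adjusted p = 0.0522). VEH-T10 mice had 11.34, 12.43 and 13.77 FPKM, and Y397F-T10 mice had 11.9, 13.04 and 13.58 FPKM, with log2 fold changes of 0.16 (adjusted p = 0.262) and 0.21 (adjusted p = 0.125). Dlgap1 measured 95.58 to 115.04 FPKM in VEH-HC and 96.56 to 121.93 FPKM over the trained mice, and its largest difference was 0.15 in Y397D-T3 (adjusted p = 0.0818).

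Dlg4 (chr11:70016942-70047522) was not called in any comparison with the home cage. It measured 253.15, 266.54 and 290.26 FPKM in VEH-HC, and the trained mice lay between 239.57 and 305.95 FPKM. All conditions overlapped. Its log2 fold changes were 0.03 for VEH-T10, 0.02 for Y397F-T10, -0.04 for VEH-T3 and 0.03 for Y397D-T3, with a standard error of 0.0488 and adjusted p between 0.679 and 0.883. The 95% intervals reached from -0.14 to 0.13, so a rise of Dlg4 as large as the one measured for Homer1 lay outside them.

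Whether the CREST forms altered the scaffolds was asked within each training period. None of the 9 was called between Y397F-T10 and VEH-T10, where 0.0% of all tested rows were called, or between Y397D-T3 and VEH-T3, where 0.00758% were. At an unadjusted p under 0.05, limma gave 1 member in the first comparison (Dlgap1) and 2 in the second (Homer3 and Shank3), beside 3.78% and 7.87% of all tested rows. Fitted to the 12 libraries of each comparison alone, 0 members reached an unadjusted p under 0.05 in either, beside 523 and 797 of all tested rows. Dlgap1 differed by 0.11 between Y397F-T10 and VEH-T10 (unadjusted p = 0.046, adjusted p = 1.0). Homer3 was higher by 0.22 in Y397D-T3 than in VEH-T3 (95% interval 0.02 to 0.42, adjusted p = 0.611), with 6 of 6 mice above the VEH-T3 median. Shank3 was higher by 0.14 (95% interval 0.01 to 0.27, adjusted p = 0.611), also with 6 of 6 mice. Neither passed the correction. Dlg4 likewise had 6 of 6 mice above the VEH-T3 median, at a difference of 0.07 (limma adjusted p = 0.741), and Homer2 had 0 of 6. The share of all tested rows with such a count was not computed. Homer1 differed by 0.09 between Y397F-T10 and VEH-T10 (95% interval -0.06 to 0.25) and by -0.02 between Y397D-T3 and VEH-T3 (95% interval -0.17 to 0.14), so differences of either sign within those bounds are not excluded.

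The lengths of training were compared in the vehicle mice. No member was called between VEH-T10 and VEH-T3, where 0.0455% of all tested rows were. Homer2 was lower in VEH-T10 by a log2 fold change of -0.22 (95% interval -0.37 to -0.06, unadjusted p = 0.00719, adjusted p = 0.463), and the mice of both conditions did not overlap, as in 0.311% of tested rows in that direction. With the length and GC trend removed, the Homer2 difference was -0.096 (unadjusted p = 0.219, adjusted p = 0.93). Homer3 was higher in VEH-T10 by 0.28 (95% interval 0.08 to 0.48, unadjusted p = 0.00807, adjusted p = 0.469). These 2 members, alone at an unadjusted p under 0.05 (8.15% of all tested rows), pointed in opposite directions, and neither passed the correction. Homer1 differed by -0.03 (95% interval -0.19 to 0.12). The difference of the plasmid effects, that of Y397D in 3-min mice minus that of Y397F in 10-min mice, was not called for any member, where 0.0303% of all tested rows were called. It was 0.34 for Homer3 (95% interval 0.06 to 0.63, adjusted p = 0.458) and 0.21 for Shank3 (95% interval 0.03 to 0.4, adjusted p = 0.472), the 2 members at an unadjusted p under 0.05, which 9.08% of all tested rows reached.

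**Figure D3:**
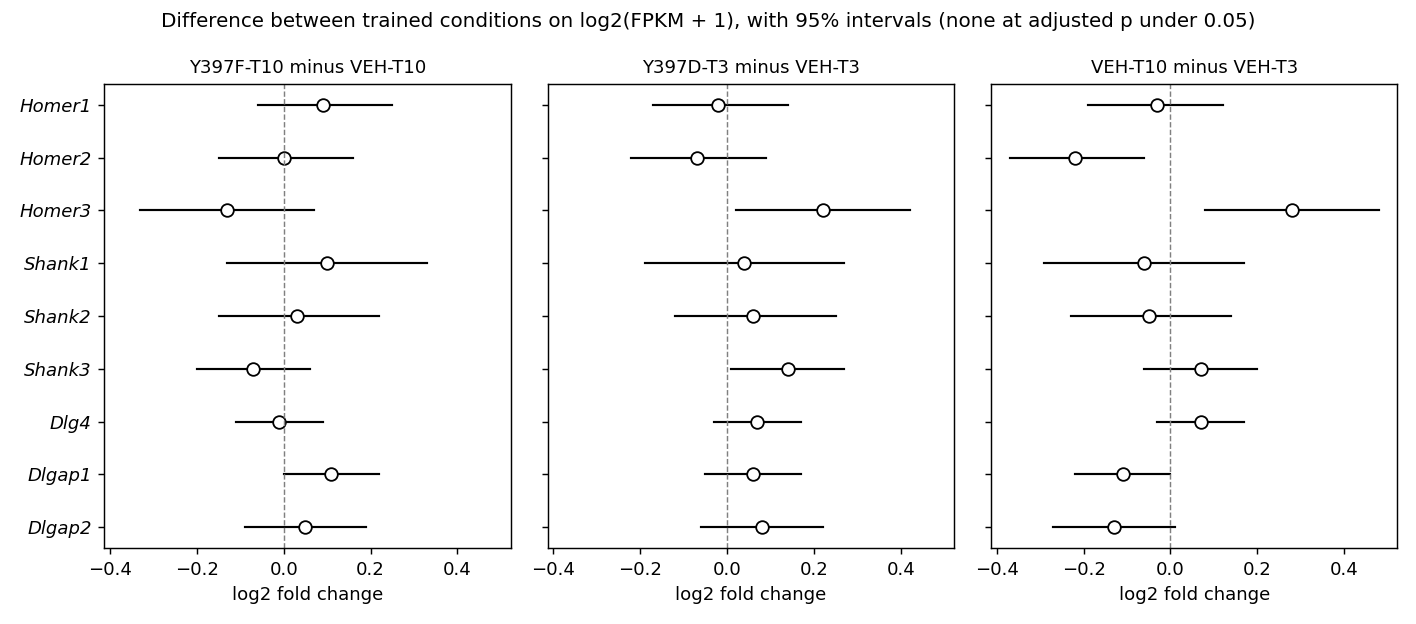
Log2 fold change of each scaffold gene (y axis) between trained conditions on log2(FPKM + 1) (x axis), with 95% intervals from limma, 1 panel per comparison. No point reached an adjusted p under 0.05, and Homer2 at -0.22 and Homer3 at 0.28 lie on opposite sides of 0 between VEH-T10 and VEH-T3.

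Partners of these scaffolds were read from lists that, like those that follow, were chosen with earlier results of these data known. Of 13 PSD-95 binding partners, 0 were called higher after VEH-T10, 2 after Y397F-T10, 2 after VEH-T3 and 6 after Y397D-T3, with none lower. The shares of all tested rows called higher in the same order, 0.319%, 0.47%, 2.23% and 3.91%, apply to this and the following lists. The median log2 fold change of the PSD-95 partners was 0.07, 0.08, 0.12 and 0.24. Grin2a, a regulatory subunit of the NMDA receptor, averaged 15.0 ± 2.78 FPKM in Y397D-T3 against 8.21 ± 2.67 in VEH-HC (mean ± SD, n = 6 mice), a log2 fold change of 0.84 with a limma adjusted p of 0.00577. Cnksr2, a scaffold of the postsynaptic density, rose by 0.33 there (adjusted p = 0.00459), and Kalrn, an exchange factor that acts on spine actin, by 0.28 (adjusted p = 0.0321). Of 15 Homer and Shank binding partners, 0, 1, 2 and 5 were called higher in the same order, with none lower and medians of 0.05, 0.06, 0.05 and 0.13. Ryr2, a calcium release channel of the endoplasmic reticulum, was called in Y397D-T3 (0.47, adjusted p = 0.00208), VEH-T3 (0.42, adjusted p = 0.00989) and Y397F-T10 (0.36, adjusted p = 0.0373). Baiap2, an actin regulator that binds Shank, averaged 101 ± 3.5 FPKM in Y397D-T3 against 83.9 ± 2.71 in VEH-HC (log2 fold change 0.27, adjusted p = 0.0087). Lrrc7, which encodes densin-180, was called in VEH-T3 (0.35, adjusted p = 0.0417) and Y397D-T3 (0.38, adjusted p = 0.0199). At an unadjusted p under 0.05 in VEH-T10, each of these lists had 2 genes higher and 1 lower, where 602 of the 13184 tested rows were higher and 1362 lower. Without VEH-HC mouse 4, the PSD-95 partners called numbered 4 in Y397D-T3, 1 in VEH-T3 and 0 in Y397F-T10, and the Homer and Shank partners 3, 1 and 0.

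The related scaffolds outside the 9 were Dlg1, Dlg2, Dlg3, Dlgap3 and Dlgap4. Limma called 0 of these 5 in any comparison with VEH-HC, and 1 of them had an unadjusted p under 0.05 (Dlg1 in VEH-T10, lower). Activity-regulated genes were read as a reference for the response at 1 h. Of 14, 1 was called higher in VEH-T10 (Fosb), 1 in Y397F-T10 (Fosb), 2 in VEH-T3 mice (Egr1 and Dusp6) and 8 in Y397D-T3, and Dusp1 was called lower in Y397F-T10. The zinc-finger factor Egr1 averaged 56.1 ± 8.44 FPKM in VEH-T3 and 54.4 ± 10.7 in Y397D-T3 against 36.3 ± 3.29 in VEH-HC (n = 6 mice each). Its log2 fold changes, 0.61 (adjusted p = 0.0104) and 0.55 (adjusted p = 0.0087), stand beside 0.45 and 0.44 for Homer1. Without VEH-HC mouse 4, 4 of the 14 were called higher in Y397D-T3, 1 in VEH-T3 and 0 in Y397F-T10, the lower call of Dusp1 in Y397F-T10 was lost, and 1 gene was called lower in VEH-T10. Limma called no gene of the 4 lists between trained conditions, where each list had between 0 and 4 genes at an unadjusted p under 0.05. Arc, Egr4, Junb and Nr4a1 were higher in Y397D-T3 than in VEH-T3, where 679 of the 13184 tested rows were higher. The same 4 were higher in the difference of the plasmid effects (745 rows). Adam22, Grin2a, Grin2b and Nlgn3 were lower in VEH-T10 than in VEH-T3 (594 rows). Fitted to the libraries compared alone, 0, 4 and 3 of these genes reached it in that order.

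Across the 30 libraries, the scaffolds varied together to different degrees. Pearson's r between members on log2(FPKM + 1) ranged from -0.06 to 0.86 over the 36 pairs. Shank1 and Shank2 were the most alike, at 0.86, and at 0.84 with condition means subtracted. Homer2 and Dlgap2 followed at 0.79, which was 0.64 with condition means subtracted. For Homer3, r was -0.06 with Dlgap1 and 0.03 with Shank2, but 0.62 with Shank3. With the length and GC trend removed, the r of Homer3 with Shank3 was 0.83 and with Homer1 0.68, where the deposited values gave 0.32. With condition means subtracted instead, the r of Homer3 was 0.44 with Shank3 and -0.14 with Homer1. The libraries share conditions, depth and composition, and r of the members with the median log2 value of the library was between -0.21 and -0.75.

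**Figure D4:**
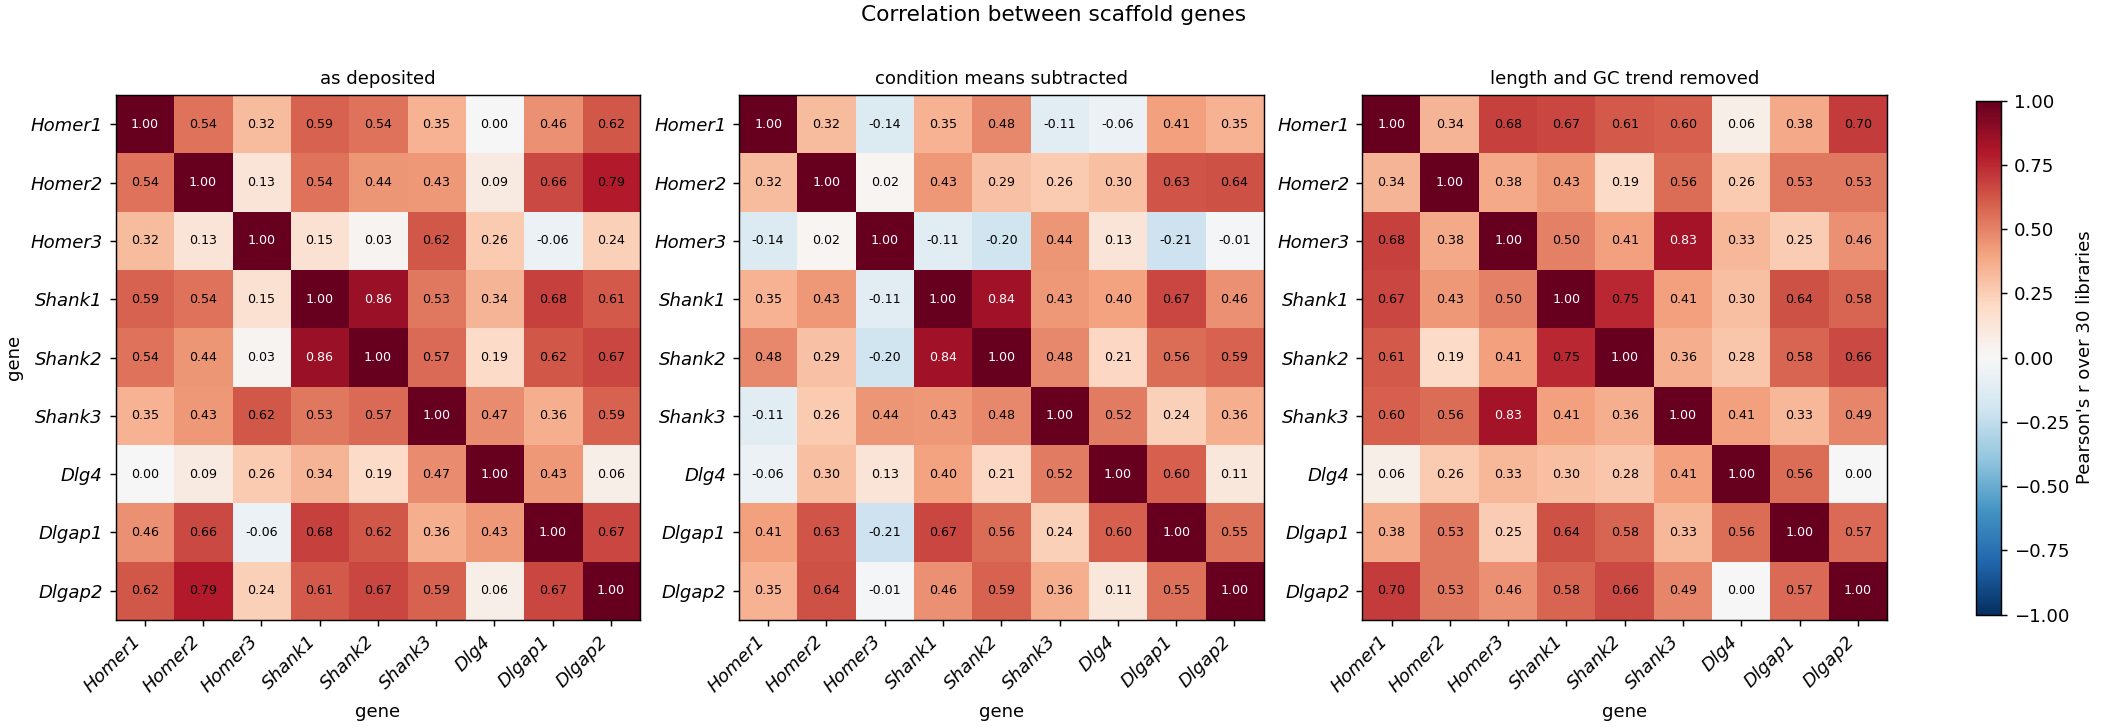
Pearson's r (colour and number) between each pair of the 9 scaffold genes (both axes) over 30 libraries on log2(FPKM + 1), as deposited, with condition means subtracted and with each library's length and GC trend removed. Shank1 with Shank2 is high in all 3 panels (0.86, 0.84 and 0.75), and the row of Homer3 changes most visibly between panels.

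The genes whose pattern was most like each member were found by Pearson's r over the same 30 libraries. For Homer1 they were Usp45 (0.85), Kdm7a (0.83) and Chordc1 (0.83), and for Homer2 Fat3 (0.87), Atp2b1 (0.82) and Tcf4 (0.8). Homer3 was closest to Gpc1 (0.93), Bok (0.87) and Pfkl (0.86). Shank1 was closest to Gm15800 (0.89), and Shank2 to Prrc2b (0.94), Elfn2 (0.93) and Srgap3 (0.92). Shank3 was closest to Camk2a (0.86), the alpha subunit of a kinase abundant at the synapse, and to Agap2 (0.86), which binds Homer. Dlg4 was closest to Arf3 (0.86), Dlgap1 to Gpd2 (0.86) and Dlgap2 to Kcnq3 (0.9). These neighbours depended on the scaling: with the length and GC trend removed, between 0 and 2 of the 3 nearest genes of a member were kept. Homer1, Homer2, Shank1, Shank2, Shank3 and Dlgap1 kept 0. With condition means subtracted, Homer1 kept 0, Dlg4 kept 1 and each other member kept 2. Shank3 then kept Agap2 and not Camk2a.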

How the data were processed

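RNA-seq was measured in 30 libraries, 1 per mouse, 6 in each of 5 conditions given by the labels. Reads were aligned to mm10 with TopHat2 2.1.1, and the authors deposited FPKM per gene symbol computed with Cufflinks 2.2.1. All 30 value columns of the table were used (0 were left out). The NovaSeq and HiSeq platforms are named without libraries assigned to them, so platform could not be modelled.

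FPKM is already divided by transcript length and library size, so no count test was used. Relative depth was estimated over 2642 rows of low FPKM. Log2(FPKM + 1) of the 13184 rows with a mean of at least 1 FPKM entered limma 3.58.1 (R 4.3.3), with 1 coefficient per condition, all 30 libraries and a variance trend, and with Benjamini-Hochberg adjustment per comparison at 0.05. Fold changes are therefore on the log2(FPKM + 1) scale, which understates those of low genes. The study's Cyber-T analysis was not run here. The steps were tested on simulated data. Tables and figures were made in Python 3.11.15 (pandas 2.3.3).

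Alternatives were a pseudocount of 0.1, no filter (18287 rows), library medians subtracted, the trend on transcript length and GC content removed (12686 rows, 96.2% with a GENCODE length, GRCm38), the 12 libraries compared alone, the replicate number as a block, rows of a symbol summed (13128 rows), unadjusted p, and each library left out. List counts without VEH-HC mouse 4 were added after seeing the data. The replicate numbers belong to different mice. The members and lists were chosen with earlier results of these data known. Named genes are the 9 members, at most 3 called genes per list and comparison with the largest absolute log2 fold change, and the 3 genes most correlated with each member. Genes named at an unadjusted p, such as Dlg1, lie outside this rule. Coordinates are GENCODE gene bounds on GRCm38.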

Additional observations from a re-analysis of the deposited data

Results flagged for a closer look

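In 3 of 45 groups of 6 mice (9 genes in 5 conditions), 1 mouse lay far from the other 5 by Dixon's 95% criterion, which chance passes in about 5% of groups. Homer3 in VEH-T10 mouse 6 was 37.32 FPKM, where the next highest VEH-T10 mouse was at 28.49 FPKM. Shank2 in VEH-HC mouse 4 was 15.32 FPKM, where the next lowest VEH-HC mouse was at 20.46 FPKM. Dlgap2 in VEH-T3 mouse 5 was 12.15 FPKM, where the next lowest VEH-T3 mouse was at 13.87 FPKM.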

How the results depend on the processing

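The direction of every called difference between a scaffold and VEH-HC was kept under all alternatives. Of the 90 alternative values of called differences other than leaving out 1 library, 9 were no longer called, and of the 120 with 1 library left out, 12 were not. The 90 include the unadjusted p of the main fit, under which no called difference can be lost. The other 8 alternatives of each difference could lose a call. In VEH-T10 the scaffolds called numbered 2 with the length and GC trend removed, alone or with the replicate block, and 2 with only the libraries compared (Homer3 being added), and 4 at an unadjusted p. In Y397F-T10 they numbered 4 and in Y397D-T3 8 at an unadjusted p. In VEH-T3 limma on the 12 libraries compared called 0, as it called 0 of all tested rows, with 3 scaffolds and 2519 rows at an unadjusted p under 0.05. The cause was not tested. At an unadjusted p the counts between trained conditions were 1 for Y397F-T10 against VEH-T10 and 2 for Y397D-T3 against VEH-T3, for VEH-T10 against VEH-T3 and for the difference of the plasmid effects. Homer3 in Y397D-T3 was also not called without the filter (adjusted p = 0.0604), and Shank1 (0.0485) and Dlgap1 (0.0413) were called there with only the libraries compared. Over all tested rows, the higher and the lower calls against VEH-HC had separate ranges over the alternatives, 33 to 125 higher and 13 to 230 lower in VEH-T10, 6 to 72 higher and 12 to 110 lower in Y397F-T10, 0 to 295 higher and 0 to 469 lower in VEH-T3 and 440 to 947 higher and 241 to 1160 lower in Y397D-T3. In Y397D-T3 the balance turned from 945 higher and 241 lower with the length and GC trend removed to 685 and 1160 with only the libraries compared.

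Replicate numbers belong to different mice. With condition means subtracted, same-numbered libraries of 2 conditions had a median r of 0.04 over 60 pairs of libraries (range -0.5 to 0.84). For 300 pairs with different numbers it was 0.01 (range -0.62 to 0.74). The replicate block called 1 scaffold after each 10-min training, 3 in VEH-T3 and 4 in Y397D-T3, Homer3 in Y397D-T3 being lost (adjusted p = 0.0624).

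Uncalled differences near 0 changed sign, 16 of the 45 at an unadjusted p of 0.05 or more, none above 0.11 in size in the main fit. With library medians subtracted, the values were 0.015 for Dlgap1 in VEH-T10 against VEH-HC, -0.00101 for Homer2 in Y397F-T10 against VEH-T10 and 0.000147 for Homer1 in Y397D-T3 against VEH-T3. With the length and GC trend removed, the values were -0.000262 for Dlg4 in Y397F-T10 against VEH-HC, -0.074 for Homer2 in Y397F-T10 against VEH-T10, 0.048 for Homer1 in Y397D-T3 against VEH-T3, -0.005 for Shank1 in Y397D-T3 against VEH-T3, 0.037 for Homer1 in VEH-T10 against VEH-T3, 0.00114 for Shank1 in VEH-T10 against VEH-T3, 0.015 for Shank2 in VEH-T10 against VEH-T3, 0.019 for Homer1 in the difference of the plasmid effects and 0.051 for Homer2 in the difference of the plasmid effects. The replicate block with that removal gave the same values. Leaving out 1 library at a time gave -0.00147 to 0.054 for Dlg4 in VEH-T10 against VEH-HC, -0.043 to 0.01 for Dlgap1 in VEH-T10 against VEH-HC, -0.003 to 0.043 for Dlg4 in Y397F-T10 against VEH-HC, -0.053 to 0.043 for Homer2 in Y397F-T10 against VEH-T10, -0.005 to 0.069 for Shank2 in Y397F-T10 against VEH-T10, -0.034 to 0.021 for Dlg4 in Y397F-T10 against VEH-T10, -0.062 to 0.016 for Homer1 in Y397D-T3 against VEH-T3, -0.032 to 0.12 for Shank1 in Y397D-T3 against VEH-T3, -0.079 to 0.012 for Homer1 in VEH-T10 against VEH-T3, -0.128 to 0.025 for Shank1 in VEH-T10 against VEH-T3, -0.138 to 0.019 for Shank1 in the difference of the plasmid effects, -0.017 to 0.088 for Shank2 in the difference of the plasmid effects and -0.00132 to 0.072 for Dlgap2 in the difference of the plasmid effects. Depth in reads is unknown, so precision rests on the spread among 6 mice.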
